A study of Mus musculus with 8 samples.

Results

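The collagen and laminin genes of mouse embryonic stem cells (ESCs) were examined in cells with and without Dax1, an orphan nuclear receptor encoded by Nr0b1, in 2 culture media. Members were the protein-coding genes named as a collagen alpha chain (Col) or a laminin alpha, beta or gamma chain (Lama, Lamb, Lamc) with at least 10 counts in at least 1 library. This rule kept 48 of the 55 such genes among 52550 genes listed. They comprised 15 basement-membrane genes, namely 11 of 11 laminin chains and 4 of 6 type IV collagen chains, and 33 other collagens. Among the other collagens were 10 of 11 fibrillar chains and 6 of 6 beaded-filament (type VI) chains. The genes left out had at most 7 counts in any library, including Col3a1 at 4, Col4a3 at 6 and Col4a6 at 3. Just inside the limit, Col25a1 reached 13 counts and Col6a3 and Col24a1 reached 14.

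RNA-seq was performed on 8 libraries, 2 for each of 4 groups. Control ESCs and Dax1KO ESCs were cultured in 2i/LIF, a serum-free N2B27 medium with the MEK inhibitor PD0325901 (1 µM), the GSK3 inhibitor CHIR99021 (3 µM) and the cytokine LIF (10 ng/ml). The same 2 genotypes were cultured in LIF/serum, with 15% FBS, LIF at 10 ng/ml and neither inhibitor. All groups were at passage 3 on gelatin-coated plates. Dax1KO cells came from CRISPR/Cas9 delivered by a lentivirus with zeocin selection and represent 1 picked colony, established in 2i/LIF and then moved to LIF/serum. In that medium they could not be kept in continuous passage according to the study, so the Dax1KO LIF/serum group is a culture that does not maintain itself. Nothing states that the 2 libraries of a group came from separate cultures, so the p-values measure only the spread between these samples, which may be technical.

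Type IV collagen chains assemble into a flexible sheet-like network, and laminins are trimers of an alpha, a beta and a gamma chain. Together with nidogens and the proteoglycan perlecan they form basement membranes, the thin matrix on which epithelia rest. In the early mouse embryo the primitive endoderm and its parietal descendants are the major producers of this matrix, while fibrillar collagens are products mainly of mesenchymal cells.

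Total counts ranged from 35911384 to 37286251 per library. Nr0b1 had 456 and 300 counts in control 2i/LIF, 0 and 0 in Dax1KO 2i/LIF, 5095 and 4689 in control LIF/serum and 14 and 6 in Dax1KO LIF/serum, in the order of the replicates, which is used for all counts given here. All 9 ESC markers examined were present in each library, with Pou5f1 between 18304 and 42310 counts. Low values piled up at steps of about 3. Between 1348 and 1587 genes per library had a value of 3, against 823 to 940 with a value of 2 and 469 to 515 with a value of 4. Whether 1 fragment gave several counts was not tested, and members below 10 counts in both libraries of a group compared are therefore given without a fold change. In LIF/serum the replicates differed by transcript length. Replicate 1 minus replicate 2 of the control had a median log2 difference of -0.257 over the fifth of genes with the shortest transcripts and 0.286 over the fifth with the longest. The basement-membrane genes have long transcripts, with a median of 6536 nt, and all 9 of those with at least 100 counts in each library were higher in control LIF/serum replicate 1 than in replicate 2.

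Sequences at the start sites of 4 genes that differed between the media are shown first, since Col4a1 and Col4a2 share theirs and Lamb1 and Lamb2 moved in opposite directions. RefSeq promoter windows on GRCm38.p6 reach from 250 bases before to 50 bases after the annotated start, and capitals mark the motifs searched on both strands. These were the GC box GGGCGG, the box of the factor NF-Y with the letters CCAAT, and the TATA box with the letters TATAAA. Col4a1 (minus strand, chr8:11198423-11312826) and Col4a2 (plus strand, chr8:11312805-11449287) are transcribed head to head, and their first exons overlap by the 22 bases at chr8:11312805-11312826. The Lamb1 stretch lies just upstream of its first exon at chr12:31265043-31265233, and the Lamb2 stretch likewise at chr9:108479612-108479735, all printed on the plus strand.
Col4a1 and Col4a2 shared start: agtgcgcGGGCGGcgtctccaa
Lamb1: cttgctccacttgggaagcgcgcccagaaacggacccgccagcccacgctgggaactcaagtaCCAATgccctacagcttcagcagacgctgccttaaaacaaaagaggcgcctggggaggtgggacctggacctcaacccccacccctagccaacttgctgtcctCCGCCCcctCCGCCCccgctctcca
Lamb2: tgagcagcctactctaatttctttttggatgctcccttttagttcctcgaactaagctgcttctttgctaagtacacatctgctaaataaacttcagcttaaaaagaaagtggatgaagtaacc
The overlap of Col4a1 and Col4a2 held 1 GGGCGG, the box bound by Sp-family factors. The Lamb1 stretch held 2 copies on the opposite strand and 1 CCAAT, and the Lamb2 stretch held none of the 3 motifs. These stretches, of 191 and 124 bases, stop at the first annotated exon. The whole 300-base windows gave the same counts for Lamb1 and Lamb2. Those of Col4a1 and Col4a2 held 1 and 3 GGGCGG and 1 CCAAT each. The shares below refer to whole windows. GGGCGG occurred in 35.7% of 32851 mouse promoter windows, CCAAT in 37.4% and TATAAA in 13.6%. Windows were found for 34 of the 48 members, and of their 37 windows 24 held GGGCGG, 13 CCAAT and 4 TATAAA. A match is a description of the letters in the window and not a binding site. Among those without a window were Col1a1, Col2a1, Col5a2, Col9a3, Col12a1, Col14a1, Col22a1, Col26a1, Lama1, Lama3, Lama4, Lamc1 and Lamc3.

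In 2i/LIF the collagen and laminin RNA was mostly laminin RNA. On the scale of normalized counts per kilobase of exon, which allows genes to be ranked, Lamc1, the common gamma chain, led in control 2i/LIF at 2886 ± 77.6 (SD, n = 2). Lama1 (652 ± 70.2), Lama5 (613 ± 15.1), Col18a1 (569 ± 20.8) and Lamb2 (559 ± 52.0) followed, and these 4 did not separate clearly from each other. Col4a1 stood at 293 ± 47.4 and Col4a2 at 211 ± 66.4. In control LIF/serum the order was Col18a1 (2124 ± 301), Lamc1 (1856 ± 539) and Col4a1 (1292 ± 697), whose SDs overlapped. In Dax1KO LIF/serum Col4a1 led at 4464 ± 693, followed by Col4a2 at 1819 ± 330, while Lama1 (1316 ± 451), Col18a1 (1276 ± 127) and Lamc1 (1178 ± 307) lay close together. All levels per kilobase use the union of the exons of each gene, in normalized counts scaled to the mean library. With the longest transcript as the length, Lamb1 stood at 1463 in place of 853 in Dax1KO LIF/serum, above Lama1 (1338) and Lamc1 (1278), and Col18a1 (714) passed Lama1 (663) in control 2i/LIF.

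The sum over the basement-membrane genes was 50711 and 48643 normalized counts in control 2i/LIF, 34192 and 38711 in Dax1KO 2i/LIF, 61009 and 39180 in control LIF/serum, and 97400 and 75235 in Dax1KO LIF/serum. Both Dax1KO LIF/serum libraries lay above all others, and both Dax1KO 2i/LIF libraries below all others. Type IV collagen carried the rise, with 3703 and 3820 in control 2i/LIF against 50578 and 40171 in Dax1KO LIF/serum, whereas the laminin sum stayed between 29712 and 47008 in the 8 libraries. Basement-membrane genes made up 86.6% and 85.6% of member counts in control 2i/LIF, 86.8% and 87.5% in Dax1KO 2i/LIF, 76.2% and 71.0% in control LIF/serum and 88.0% and 86.5% in Dax1KO LIF/serum. The control LIF/serum libraries were the low ones. Col18a1 had the most counts of the other collagens in each of the 4 groups.

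**Figure D1:**
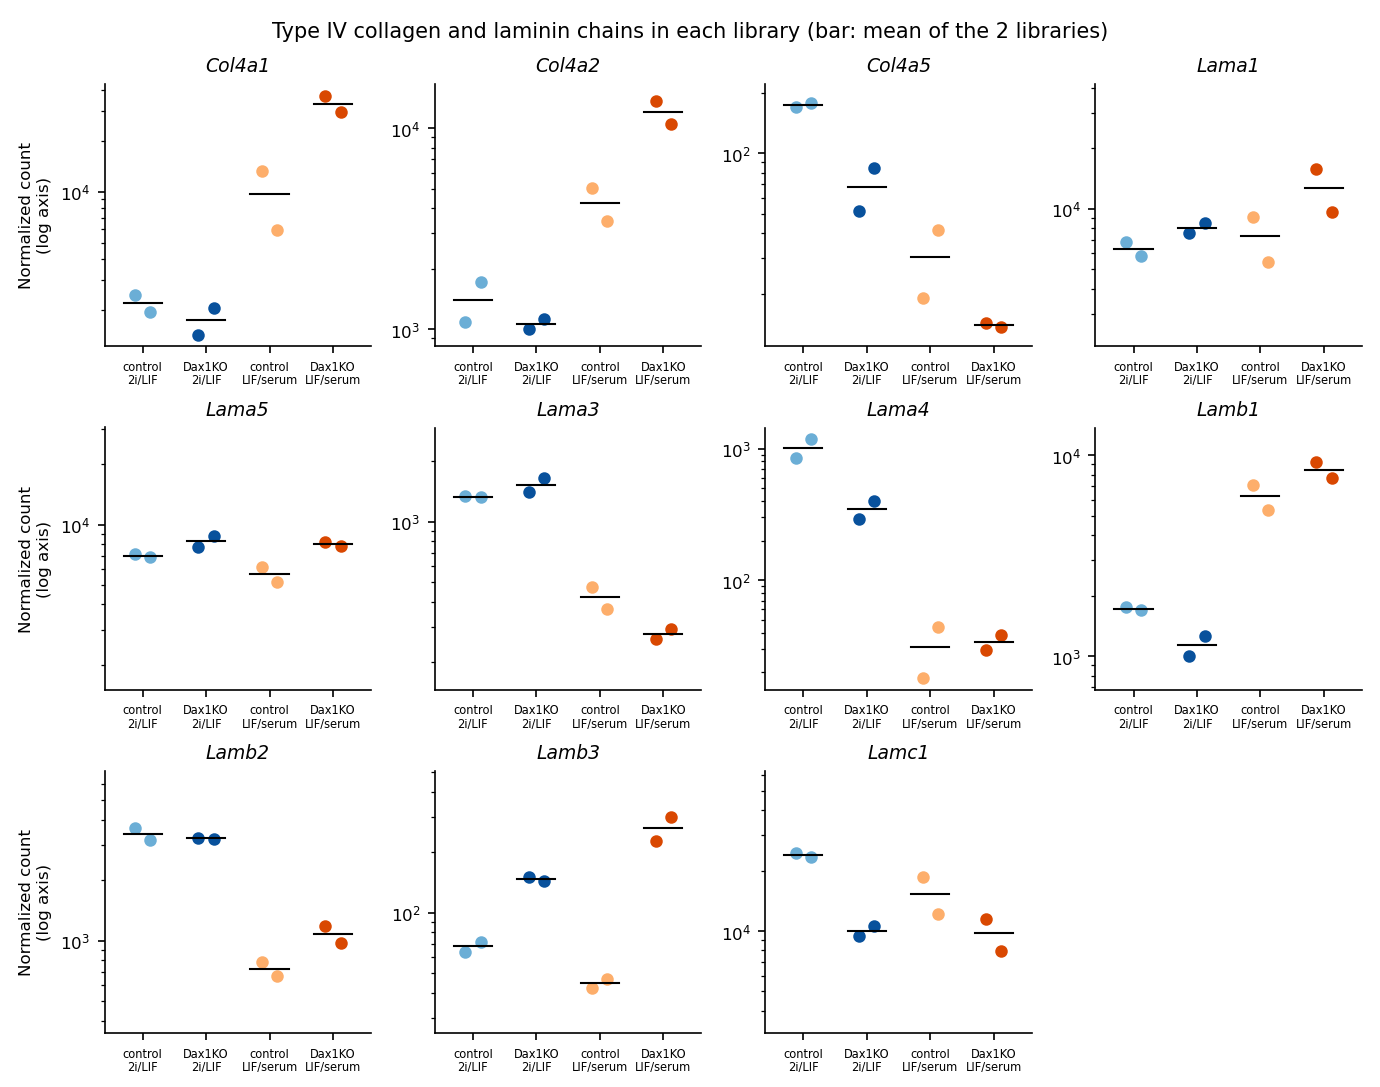
Normalized count of 11 basement-membrane genes in each of the 8 libraries, on log axes, by group, with 1 point per library and a bar at the mean of the 2 libraries. Col4a1 and Col4a2 are highest in both Dax1KO LIF/serum libraries, Lamb1 is higher and Lamb2 lower in LIF/serum than in 2i/LIF, and Lama4 is far lower in the 4 LIF/serum libraries than in the 4 2i/LIF libraries.

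The first question was how the matrix genes differed between the media in control cells. Moving from 2i/LIF to LIF/serum, the main type IV chains and Lamb1 rose, and chains including Lamb2, Lama3, Lama4 and Col4a5 fell. Differences were tested with the quasi-likelihood F-test of edgeR, and p-values were adjusted over 20749 genes by the Benjamini-Hochberg method. A call required an adjusted p no larger than 0.05 together with a change of 1.2-fold or more. In all, 45 members were tested, 15 basement-membrane genes and 30 others; Col6a3, Col24a1 and Col25a1 did not pass the filter on low counts. Of the basement-membrane genes 3 rose and 5 fell, and of the other collagens 7 rose and 8 fell, where 36.8% of all genes tested were called in this comparison, 16.5% higher and 20.3% lower. The groups' libraries did not overlap for 12 of the 15 and 21 of the 30, against 68.6% of all genes. The median log2 difference was -0.64 for basement-membrane genes and -0.28 for other collagens, against -0.01 for all genes.

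Col4a1, which with Col4a2 forms the most widespread type IV trimer, had 2427 and 1933 counts in control 2i/LIF and 12565 and 5591 in control LIF/serum. Both serum libraries were above both 2i/LIF libraries, and replicate 1 was the higher. The difference was 4.42-fold (log2 2.14, SE 0.36, edgeR adjusted p = 0.00269), and 2.73-fold without replicate 1. Col4a2 went from 1081 and 1705 to 4773 and 3247 counts, 3.06-fold higher (edgeR adjusted p = 0.00223). Col4a5, a chain of more restricted basement membranes such as that of the kidney glomerulus, went the other way, from 169 and 177 to 18 and 39 counts (log2 -2.51, edgeR adjusted p = 0.00253; -3.15 without control LIF/serum replicate 2). Its partner Col4a4 was scarcely detected in 2i/LIF, with 16 and 4 counts in control and 11 and 0 in Dax1KO cells, and was listed at 0 in all 4 LIF/serum libraries. The direction of change was therefore not shared across the type IV chains.

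Among the laminin beta chains the media exchanged the leading chain. Lamb1, on chromosome 12 at chr12:31265234-31329644, had 1743 and 1695 counts in control 2i/LIF and 6709 and 5012 in control LIF/serum, a 3.62-fold rise (log2 1.86, SE 0.18, edgeR adjusted p = 0.000210). Lamb2, the beta chain of synaptic and glomerular laminins (chr9:108479736-108490530), had 3614 and 3176 counts in 2i/LIF and 742 and 626 in LIF/serum, a 4.68-fold fall (log2 -2.23, SE 0.15, edgeR adjusted p = 5.04e-05). Neither gene had overlapping libraries. Per kilobase, Lamb1 made up 22.5% and 24.3% of the summed beta-chain level in control 2i/LIF, and 84.1% and 82.2% in control LIF/serum. Lamb3, the beta chain of laminin-332, was at 64 and 72 counts against 40 and 44, which did not pass the test (log2 -0.61, edgeR adjusted p = 0.0936).

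Of the alpha chains, Lama1, the early embryonic chain (chr17:67697259-67822647), had 6775 and 5831 counts in control 2i/LIF and 8597 and 5104 in control LIF/serum, with overlapping libraries (edgeR adjusted p = 0.605). Lama5 (chr2:180176373-180225859), the chain of laminin-511, on which ESCs adhere well, had 7088 and 6862 against 5792 and 4875 (edgeR adjusted p = 0.0872; 0.0418 without control LIF/serum replicate 1). The large change was in Lama4, a chain typical of vessel and muscle basement membranes. It fell from 846 and 1176 counts to 17 and 41, a 32.7-fold difference (log2 -5.03, SE 0.41, edgeR adjusted p = 0.000102; 54.9-fold without control LIF/serum replicate 2). Lama3, an epithelial chain, fell 3.16-fold from 1338 and 1322 to 448 and 346 counts (edgeR adjusted p = 0.000285). Lamc1 (chr1:153218922-153332786) had 24263 and 23416 counts in 2i/LIF and 17452 and 11440 in LIF/serum, which did not pass by edgeR (log2 -0.64, edgeR adjusted p = 0.0572). DESeq2 called it lower (adjusted p = 0.0143). So did edgeR with an offset for the transcript-length trend of each library (adjusted p = 0.0455), so the call depended on the tool and setting. The call was also gained without control LIF/serum replicate 1 or either Dax1KO LIF/serum library (log2 -0.97 to -0.64).

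Outside the basement-membrane group, the leading change by level was in Col18a1 (chr10:77052178-77166548), a heparan sulfate-bearing collagen of the multiplexin class that sits at basement membranes and yields endostatin. It rose from 3881 and 4097 counts to 15476 and 12577, a 3.73-fold difference (log2 1.90, edgeR adjusted p = 6.3e-05). The type VI chains Col6a4, at 8 and 11 against 144 and 113 counts (log2 3.83, edgeR adjusted p = 0.000113), and Col6a5, at 7 and 30 against 123 and 107 (log2 2.71, edgeR adjusted p = 0.00914), also rose. The Col6a5 value was 2.02 without control 2i/LIF replicate 1 and 4.14 without replicate 2. Their levels were low in each medium. Col8a2, a network-forming chain of the corneal endothelium, rose from 16 and 11 to 86 and 82 counts (log2 2.71, edgeR adjusted p = 0.00135). Col6a6 went from 3 and 0 to 19 and 16 counts (edgeR adjusted p = 0.0423).

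Of 9 fibrillar chains tested 5 fell and 1 rose. Col11a1, a cartilage collagen, went from 534 and 561 to 113 and 76 counts (log2 -2.45, edgeR adjusted p = 0.000295). Col5a1, the regulator of fibril diameter, went from 1287 and 1163 to 507 and 472 (log2 -1.24, edgeR adjusted p = 0.000752). Col5a2, Col5a3 and Col1a1 fell by 2.19, 1.46 and 1.90 on the log2 scale (edgeR adjusted p = 0.0114, 0.00300 and 0.00541; Col1a1 fell by 2.54 without control LIF/serum replicate 2). Col2a1 (log2 0.09) and Col27a1 (-0.34) did not pass (edgeR adjusted p = 0.752 and 0.466), nor did Col11a2, at 7 and 3 against 20 and 13 counts (0.114). Col1a2, the partner of Col1a1 in type I collagen, was the chain that rose, at 0 and 4 counts in 2i/LIF and 22 and 27 in LIF/serum (edgeR adjusted p = 0.0124). The remaining calls were Col7a1, which rose, and Col20a1, Col22a1 and Col10a1, which fell, the last being listed at 0 in both control LIF/serum libraries. These calls and those of Col5a2 and Col6a6 were lost in 2 to 6 of the 8 omissions of a single library, with edgeR adjusted p between 0.0532 and 0.156. The Col5a2 call was lost without control 2i/LIF replicate 2 or control LIF/serum replicate 1, and that of Col22a1 without replicate 2 of either control group. The Col7a1 call was lost without either control 2i/LIF library or control LIF/serum replicate 1, and that of Col10a1 without control 2i/LIF replicate 2 or either control LIF/serum library. The Col20a1 call was lost in all omissions but those of the Dax1KO LIF/serum libraries. It was also lost by DESeq2 (adjusted p = 0.0522) and in edgeR with no filter on low counts (adjusted p = 0.0594). The Col6a6 call was lost without any LIF/serum library or control 2i/LIF replicate 2. Col15a1, the other multiplexin, was at 11 and 16 counts against 9 and 0 and was called without control LIF/serum replicate 1 but in no other omission.

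In Dax1KO cells, 4 basement-membrane genes rose and 6 fell from 2i/LIF to LIF/serum, and 5 other collagens rose and 3 fell, where 28.9% of all genes were called, 13.7% higher and 15.2% lower. Libraries did not overlap for 11 of 15 and 22 of 30 members, against 68.9% of all genes. Median log2 differences were -0.04 and 0.39, against -0.01 for all genes. Col4a1 went from 1466 and 2081 counts to 38655 and 30420, a 19.3-fold rise (log2 4.27, SE 0.39, edgeR adjusted p = 0.000235). Col4a2 went from 1027 and 1152 to 14200 and 10766, an 11.3-fold rise (log2 3.50, SE 0.28, edgeR adjusted p = 0.000117). Lamb1 went from 1035 and 1282 to 9673 and 7871, a 7.49-fold rise (edgeR adjusted p = 5.11e-05). In all 3 genes both serum libraries were far above both 2i/LIF libraries.

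Lamb2 (log2 -1.58), Lama4 (-3.36), Lama3 (-2.46) and Col4a5 (-2.27) fell in Dax1KO cells too, with edgeR adjusted p between 7.56e-05 and 0.00707. Lama2, the muscle laminin chain, had 53 and 61 counts in Dax1KO 2i/LIF and 8 and 3 in Dax1KO LIF/serum (edgeR adjusted p = 0.0184). Lamb3 rose by edgeR (log2 0.84, edgeR adjusted p = 0.0288) but was not called by DESeq2 (adjusted p = 0.0593). The Lama2 call was lost without any of the 4 Dax1KO libraries (edgeR adjusted p between 0.0520 and 0.105). The Lamb3 call was lost without either Dax1KO 2i/LIF library or Dax1KO LIF/serum replicate 2 (0.109 to 0.165). Of the other collagens, Col18a1 rose 4.19-fold (edgeR adjusted p = 5.52e-05), and Col6a4, Col6a5, Col6a6 and Col1a2 rose while Col5a2, Col11a1 and Col20a1 fell. The Col1a2 call was lost without any Dax1KO library, that of Col6a6 in the same omissions except Dax1KO 2i/LIF replicate 1, and that of Col20a1 in the same omissions except Dax1KO LIF/serum replicate 1 (edgeR adjusted p 0.0629 to 0.121). Col5a1 was at 669 and 828 counts in 2i/LIF and 1111 and 997 in LIF/serum (log2 0.48, edgeR adjusted p = 0.0524). The comparisons of the media and those of the genotypes share libraries, so their values are given side by side and not related to each other.

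**Figure D2:**
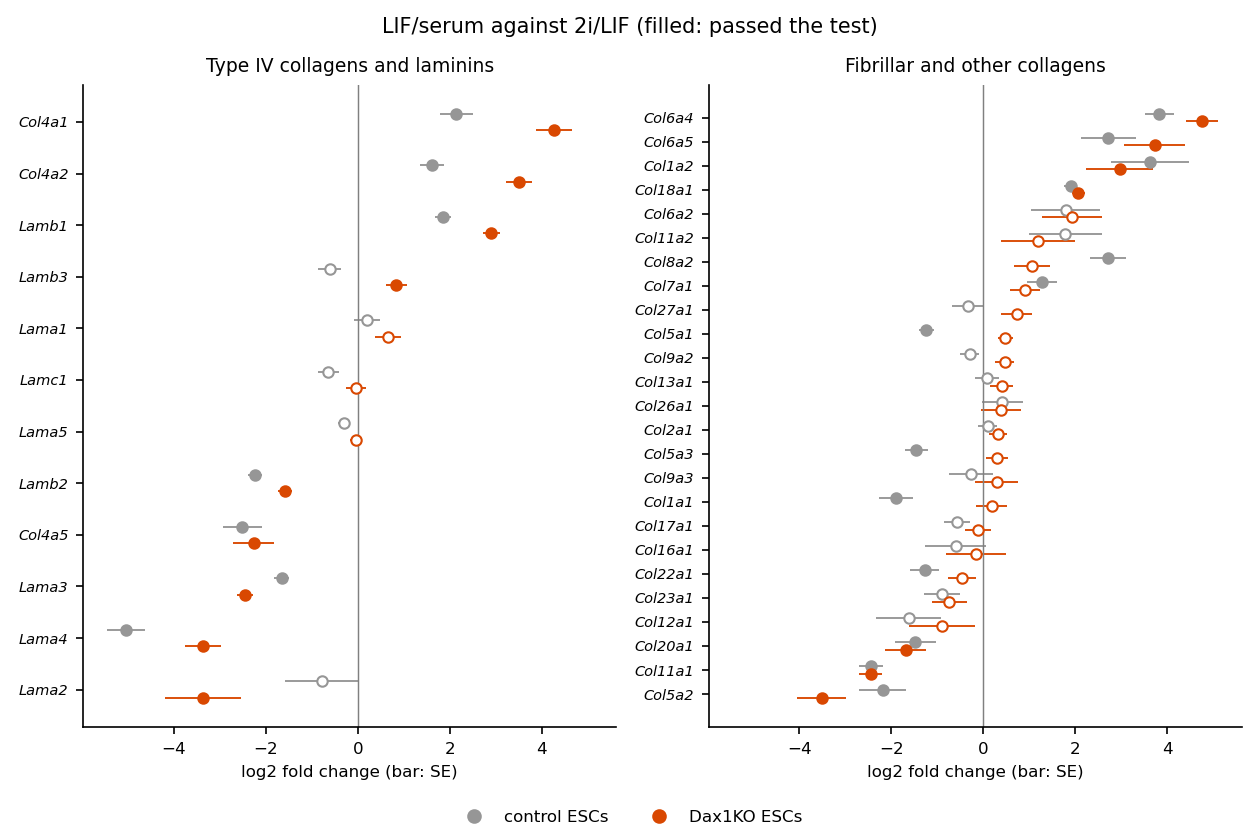
Log2 difference of LIF/serum over 2i/LIF, with its standard error, for 12 basement-membrane genes and 25 other collagens, in control ESCs (grey) and Dax1KO ESCs (orange). Filled points passed the test. Genes that were not tested, had a standard error above 1 or were at 0 in a whole group are not drawn, nor is 1 further gene not reported here. Col4a1, Col4a2, Lamb1 and Col18a1 lie above 0 and Lamb2, Lama3, Lama4 and Col11a1 below 0 in both genotypes.

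The next question was what loss of Dax1 did to these genes in 2i/LIF. There, edgeR called 3 members, each lower in Dax1KO cells, namely 1 of 15 basement-membrane genes and 2 of 30 other collagens, where 3.16% of all genes were called, 1.51% higher and 1.65% lower. Libraries did not overlap for 10 of the 15 and 11 of the 30, against 51.8% of all genes. Medians were -0.34 and -0.04 on the log2 scale, against -0.01 for all genes. Lamc1 had 24263 and 23416 counts in control and 9666 and 10863 in Dax1KO cells, 2.39-fold lower (log2 -1.25, SE 0.23, edgeR adjusted p = 0.0312). Col18a1 had 3881 and 4097 against 2102 and 2283, 1.87-fold lower (log2 -0.90, SE 0.13, edgeR adjusted p = 0.0173). Col5a1 had 1287 and 1163 against 669 and 828, 1.68-fold lower (log2 -0.75, SE 0.16, edgeR adjusted p = 0.0466). For each, both Dax1KO libraries lay below both control libraries. The Lamc1 and Col18a1 calls were lost without any of the 4 2i/LIF libraries (edgeR adjusted p 0.117 to 0.204 and 0.0765 to 0.145). The Col5a1 call was lost without any of the 8 libraries (0.0561 to 0.269). The log2 differences without a library stayed between -1.34 and -1.17 for Lamc1 and between -0.97 and -0.84 for Col18a1.

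Col4a1 (edgeR adjusted p = 0.709), Col4a2 (0.498), Lama1 (0.602), Lama5 (0.361) and Lamb2 (0.876) did not pass in 2i/LIF. Lama4, at 846 and 1176 counts in control and 302 and 412 in Dax1KO cells, and Lamb3, at 64 and 72 against 156 and 147, did not overlap but narrowly missed the threshold (edgeR adjusted p = 0.0542 and 0.0508). With edgeR 7 basement-membrane genes and 5 other collagens had an unadjusted p below 0.05, as did 17.9% of all genes, and 2 of the 7 were higher. DESeq2 called 1 basement-membrane gene higher, Lamb3 (adjusted p = 0.0429), and 3 lower, Lamc1, Lama4 (0.000149) and Lamb1. Of all genes it tested, DESeq2 called 6.38%, with 3.31% higher and 3.07% lower. Lamb1 had 1743 and 1695 counts in control and 1035 and 1282 in Dax1KO cells, without overlap (log2 -0.61, edgeR adjusted p = 0.117). Its adjusted p was 0.0317 by DESeq2, and it was called with the length offset in edgeR (adjusted p = 0.0401). Col1a1 stood at 117 and 134 against 149 and 118 counts.

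In LIF/serum, loss of Dax1 went with more type IV collagen RNA, more Lamb3 and more of several fibrillar chains, while Col18a1 was lower. Lama5 and Lamb2 were higher and Col8a2 lower, by calls that depended on the tool or the setting. Of the basement-membrane genes 5 of 15 rose and none fell at this threshold by edgeR, and of the other collagens 3 rose and 2 fell of 30, where 14.7% of all genes were called, 8.87% higher and 5.78% lower. Unadjusted p was below 0.05 for 10 and 8 members (3 of the 10 lower) and for 30.7% of all genes, and DESeq2 called 6 basement-membrane genes higher and 2 lower, against 19.6% of all genes it tested. The 2 lower were Lamc1, described below, and Lama3 (DESeq2 adjusted p = 0.0298). Lama3 had 448 and 346 counts in control and 272 and 301 in Dax1KO LIF/serum, without overlap, and narrowly missed by edgeR (log2 -0.61, edgeR adjusted p = 0.0519). Libraries did not overlap for 11 of 15 and 16 of 30, against 57.5% of all genes. Medians were 0.44 and 0.23 on the log2 scale, against 0.01 for all genes, and without Col4a4, which was at 0 throughout, the basement-membrane median was 0.47.

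Col4a1 had 12565 and 5591 counts in control LIF/serum and 38655 and 30420 in Dax1KO LIF/serum. Col4a2 had 4773 and 3247 against 14200 and 10766. In both genes the lower Dax1KO library was more than 2 times the higher control library. The differences were 3.46-fold for Col4a1 (log2 1.79, SE 0.35, edgeR adjusted p = 0.0163) and 2.83-fold for Col4a2 (SE of the log2 value 0.26, edgeR adjusted p = 0.0102). The Col4a1 call was lost without either Dax1KO LIF/serum library (log2 1.62 to 1.94, edgeR adjusted p 0.0581 to 0.0678). Without control LIF/serum replicate 1, the higher control library, the Col4a1 difference was 5.59-fold. Over all alternatives and omissions run its log2 value lay between 1.31 and 2.48. The Col4a2 call was lost without control LIF/serum replicate 2, the library with fewer counts on long transcripts (log2 1.24, edgeR adjusted p = 0.0559). With an offset for the transcript-length trend of each library, chosen after seeing the data, both were called.

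Lamb3 (chr1:193207699-193343878) had 40 and 44 counts in control and 238 and 309 in Dax1KO LIF/serum, with a wide gap between the groups. This was the largest fold difference among the basement-membrane genes called, 5.91-fold (log2 2.56, SE 0.25, edgeR adjusted p = 0.00183), on a low level. It was called without each library and under each alternative run, with the largest edgeR adjusted p at 0.0150. Lama5 had 5792 and 4875 against 8571 and 8011 counts (log2 0.50, edgeR adjusted p = 0.0328). Lamb2 had 742 and 626 against 1239 and 1004 (log2 0.57, edgeR adjusted p = 0.0381). Both missed the threshold with no filter on low counts (edgeR adjusted p = 0.0540 and 0.0684) and with a separate fit for each medium (0.0826 and 0.107). Neither overlapped, but the Lama5 call was lost in 7 of 8 omissions of a library, all but that of control LIF/serum replicate 1, and the Lamb2 call in 8 of 8, with edgeR adjusted p between 0.0514 and 0.174.

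The chains of laminin-111, the main laminin of the early embryo, did not pass by edgeR in LIF/serum. DESeq2 called 2 of the 3, Lama1 as higher (adjusted p = 0.00904) and Lamc1 as lower (0.0187), and so did edgeR with the length offset (adjusted p = 0.0402 and 0.0201). Lama1 had 8597 and 5104 counts in control and 16547 and 9900 in Dax1KO LIF/serum, with both Dax1KO libraries higher (log2 0.81, edgeR adjusted p = 0.0949; 0.0488 without control LIF/serum replicate 1). Lamb1 had 6709 and 5012 against 9673 and 7871 (log2 0.44, edgeR adjusted p = 0.129). Lamc1 had 17452 and 11440 against 12057 and 8152. After normalization the groups did not overlap, with the lower control library at 12202 and the higher Dax1KO library at 11534 (log2 -0.66, edgeR adjusted p = 0.0905; 0.0440 without control LIF/serum replicate 2).

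Among other collagens, Col1a1 (chr11:94936224-94953042), the main chain of type I collagen, had 20 and 43 counts in control and 171 and 134 in Dax1KO LIF/serum. Both control libraries were low, and the Dax1KO libraries lay near the 117 to 149 counts of the 4 2i/LIF libraries. The difference was 4.38-fold (log2 2.13, SE 0.37, edgeR adjusted p = 0.0108), and 6.85-fold without control LIF/serum replicate 2. Col5a1 (chr2:27886425-28039514) had 507 and 472 against 1111 and 997 counts, 1.95-fold higher (log2 0.97, SE 0.16, edgeR adjusted p = 0.00876). Col1a1 and Col5a1 were called in each alternative test and omission run, with the fold of Col5a1 just under 2. Col5a3 had 128 and 85 against 254 and 312 counts (log2 1.27, edgeR adjusted p = 0.0161; 0.0652 to 0.0944 without replicate 2 of either LIF/serum group). Col1a2 stood at 22 and 27 against 49 and 55 counts (log2 0.94, edgeR adjusted p = 0.363). It lies on chromosome 6, where the median of 1054 tested genes was 0.44 higher in Dax1KO cells in 2i/LIF and 0.52 higher in LIF/serum on the log2 scale, and the part of this shift in the Col1a2 value was not tested.

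Col18a1 was lower in Dax1KO cells here too, at 15476 and 12577 against 10025 and 8542 counts (log2 -0.73, SE 0.13, edgeR adjusted p = 0.0121; 0.0897 without Dax1KO LIF/serum replicate 2). Col8a2 had 86 and 82 against 40 and 30 counts (log2 -1.40, edgeR adjusted p = 0.0390). Its groups did not overlap, but the call was lost in 6 of 8 omissions, all but those of the control 2i/LIF libraries (0.0598 to 0.187), and also by DESeq2 (adjusted p = 0.0983) and in edgeR with no filter on low counts (0.0534). Col15a1 went from 9 and 0 to 28 and 20 counts (edgeR adjusted p = 0.187; 0.0363 without control LIF/serum replicate 1).

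**Figure D3:**
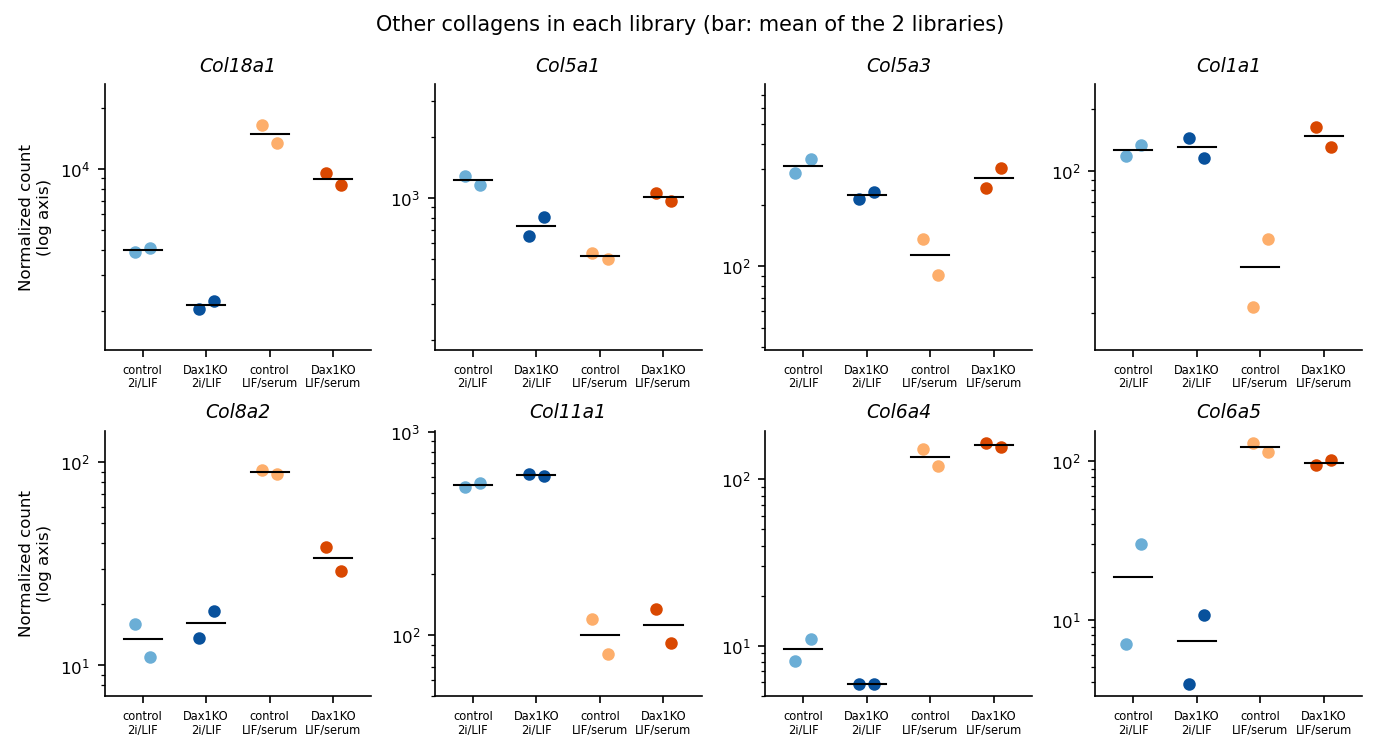
Normalized count of 8 other collagens in each library, on log axes, by group, with 1 point per library and a bar at the mean of the 2 libraries. Col18a1 is lower in Dax1KO than in control cells in each medium, and Col5a1, Col5a3 and Col1a1 are lowest in control LIF/serum.

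Markers of primitive endoderm and its derivatives were compared over the same 4 groups. Their summed level was 2226 and 2091 normalized counts in control 2i/LIF, 1871 and 2285 in Dax1KO 2i/LIF, 23259 and 12953 in control LIF/serum and 53701 and 35292 in Dax1KO LIF/serum. Cubn and Lrp2, endocytic receptors of visceral endoderm, made up 34.6% and 30.3% of the mean sum in Dax1KO LIF/serum. Of the 13 markers, 7 rose and none fell in Dax1KO LIF/serum by edgeR, where 8.87% of all genes rose, among them Gata6 (log2 1.38), Gata4 (1.44) and Sox17 (1.62). Unadjusted p was below 0.05 for 10 that were higher and 0 that were lower, against 17.5% and 13.2% of all genes. DESeq2 called 9 higher and 0 lower, against 11.9% and 7.65% of all genes it tested. Plat and Thbd, associated with parietal endoderm, averaged 131, 242, 61.6 and 41.5, and 21.5, 28.3, 11.7 and 7.73 normalized counts in the 4 groups, lowest in Dax1KO LIF/serum. Gata6 had 240 and 275, 82 and 159, 681 and 485, and 1740 and 1590 counts in the 4 groups in the same order. From 2i/LIF to LIF/serum 11 of the 13 rose in each genotype, with 1 falling in control (Plat) and 2 in Dax1KO cells (Plat and Thbd), where 16.5% and 13.7% of all genes rose. The study itself examined endoderm genes on these samples, so the list is not independent of them. Its part in the collagen and laminin values was not tested, and in bulk RNA more cells of a type and more RNA per cell cannot be told apart.

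Fibroblast markers summed to 2076 and 2563, 1818 and 1863, 759 and 818, and 2016 and 2030 normalized counts in the 4 groups. Most of each sum was Thy1, at a mean of 1957, 1089, 411 and 1269, while Twist1 averaged 200, 220, 227 and 199 and Pdgfrb 125, 439, 134 and 464. Only 5 of the 11 were tested. Fap was at 0 in each library, Dcn was at 0 in all but 1, where it had 3 counts, and Lum and Postn were at 0 in all LIF/serum libraries. Thy1 (log2 1.63, edgeR adjusted p = 0.00147) and Pdgfrb (log2 1.79, edgeR adjusted p = 0.00647) rose in Dax1KO LIF/serum. In Dax1KO 2i/LIF Pdgfrb rose (log2 1.81, edgeR adjusted p = 0.0167) and Thy1 fell (log2 -0.85, edgeR adjusted p = 0.0271). The part of such cells in the fibrillar collagen values was not tested.

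**Figure D4:**
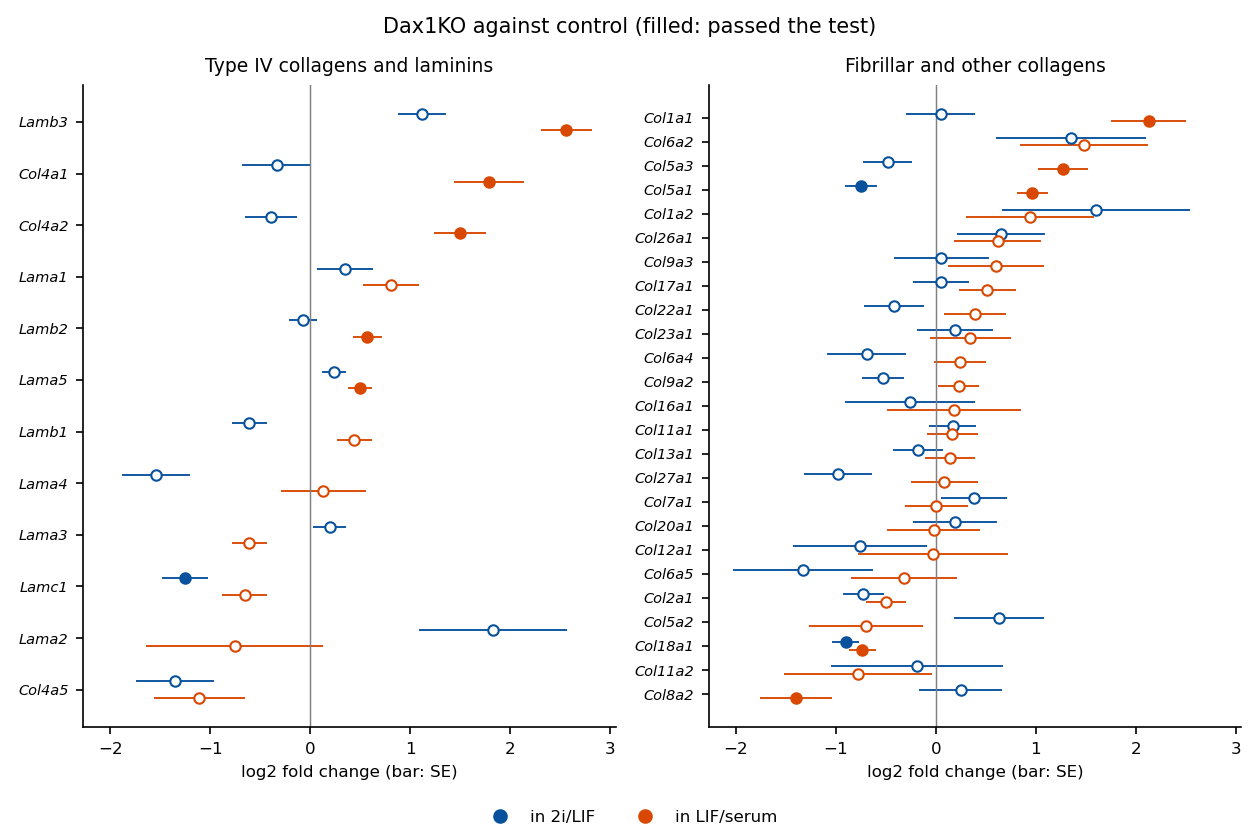
Log2 difference of Dax1KO over control ESCs, with its standard error, in 2i/LIF (blue) and LIF/serum (orange) for the same 12 basement-membrane genes and 25 other collagens. Filled points passed the test. Col4a1 and Col4a2 lie slightly below 0 in 2i/LIF (-0.34 and -0.39) and above 0 in LIF/serum, where they passed the test, while Col18a1 lies below 0 in both media.

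Whether the effect of Dax1 loss differed between media was tested as an interaction in the same fit. It was larger in LIF/serum for 1 of 15 basement-membrane genes and 2 of 30 other collagens, where 2.87% of all genes passed, 2.05% with a larger and 0.824% with a smaller value in LIF/serum. Here the adjusted p alone decided. These were Col4a2 (log2 difference of 1.89, SE 0.36, edgeR adjusted p = 0.0402), Col5a1 (1.72, SE 0.22, edgeR adjusted p = 0.0139) and Col5a3 (1.75, SE 0.35, edgeR adjusted p = 0.0429). Col5a1 was lower in Dax1KO cells in 2i/LIF and higher in LIF/serum, and passed the test in each direction. Col4a1 had the larger estimate but missed the threshold (2.12, SE 0.49, edgeR adjusted p = 0.0686; 2.82 and 0.0235 without control LIF/serum replicate 1). Col1a1 (2.08, edgeR adjusted p = 0.0748; 0.0472 without control LIF/serum replicate 2), Lamb3 (1.45, 0.0702) and Lamb1 (1.05, 0.0702) missed it as well. DESeq2 passed Col4a1 (adjusted p = 0.0211), Col1a1 (0.0186), Lamb1 (0.00355) and Lama4 (0.0248; 0.148 by edgeR) but not Lamb3, and the length offset in edgeR passed Col4a1 (adjusted p = 0.0368) and Lamb1 (0.0341), so the call for these genes depended on the tool. Of all genes it tested, DESeq2 passed 6.64% here. Single libraries decided the calls made: Col4a2 was lost in 6 of 8 omissions, all but those of replicate 1 of the control groups (0.0895 to 0.161). Col5a1 was lost in 5, those of control 2i/LIF replicate 2 and the 4 Dax1KO libraries (0.0510 to 0.0717), and Col5a3 in 7, all but that of control LIF/serum replicate 1 (0.0765 to 0.167).

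The ratio of type IV collagen to laminin separated the media, and the genotypes in LIF/serum. Per kilobase, Col4a1 and Col4a2 together equalled 9.09% and 10.1% of the summed laminin level in control 2i/LIF, 9.71% and 11.3% in Dax1KO 2i/LIF, 54.6% and 40.8% in control LIF/serum, and 141% and 150% in Dax1KO LIF/serum. The 4 2i/LIF libraries could not be separated by genotype, and the Dax1KO LIF/serum libraries held more type IV than laminin RNA. The Col4a1 to Col4a2 ratio was 1.99 and 1.01, 1.27 and 1.60, 2.33 and 1.53, and 2.41 and 2.51 in the 4 groups, so its replicates spread as widely as most groups. A type IV trimer holds more Col4a1 than Col4a2 chains.

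Within the laminins, Lamb2 held 76.2% and 74.2% of the beta-chain level in control 2i/LIF and 81.1% and 78.1% in Dax1KO 2i/LIF, but 15.2% to 16.8% in the 4 LIF/serum libraries. With the longest transcript as the length, the mean share of Lamb2 was 66.0% and 71.8% in the 2i/LIF groups and 10.6% and 11.2% in the LIF/serum groups. Lamb3 held 1.24% and 1.55% in control and 3.48% and 3.21% in Dax1KO 2i/LIF, and 0.752% and 1.08% against 2.96% and 4.65% in LIF/serum, and so was higher in Dax1KO libraries in each medium. Lama1 and Lama5 together made up most of the alpha-chain level in each library, with Lama1 at 42.2% to 68.6% and Lama5 at 30.2% to 43.2%. Lama4 took 4.62% and 6.83% in control 2i/LIF, 1.51% and 1.81% in Dax1KO 2i/LIF and at most 0.343% in LIF/serum.

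**Figure D5:**
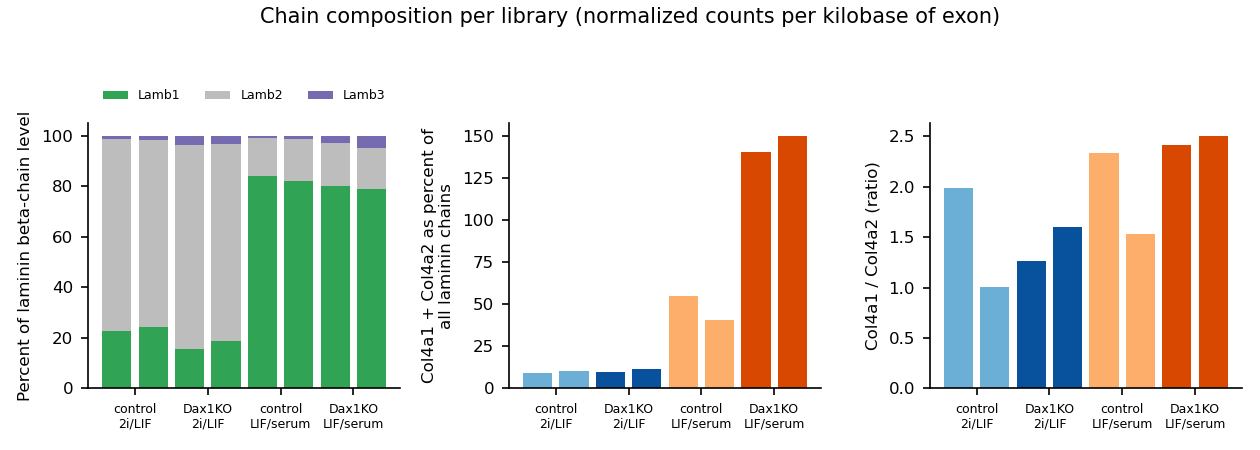
Chain composition in each of the 8 libraries from normalized counts per kilobase of exon: percent of the laminin beta-chain level from Lamb1, Lamb2 and Lamb3, Col4a1 plus Col4a2 as percent of the summed laminin level, and the ratio of Col4a1 to Col4a2. The beta chain switches with medium in both genotypes, and type IV collagen reaches 141% and 150% of laminin in Dax1KO LIF/serum.

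Over the 8 libraries the genes outside the collagens and laminins whose log2 normalized counts ran most like Col4a1 were F2r, the thrombin receptor (Pearson r = 0.992), Rbm47, an RNA-binding protein (0.992), and Gata4, an endoderm transcription factor (0.990). F2r averaged 1163 ± 66.5, 1187 ± 77.9, 2306 ± 410 and 3422 ± 250 normalized counts in the 4 groups, and Gata4 355 ± 12.7, 318 ± 12.1, 814 ± 111 and 2210 ± 200 (SD, n = 2). Among the members the closest were Col4a2 (0.983), Lamb1 (0.956) and Col6a4 (0.922), and the most opposed were Lama3 (-0.940) and Col5a2 (-0.926). The points share their groups and libraries, so these values only describe the order of the levels.

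Genes that work with collagen and laminin were counted by list. The counts stand against the shares of all genes tested: 1.51% higher and 1.65% lower for Dax1 loss in 2i/LIF, 8.87% and 5.78% in LIF/serum, 16.5% and 20.3% for LIF/serum over 2i/LIF in control cells, and 13.7% and 15.2% in Dax1KO cells. Nothing was tested for a list as a whole. Of 17 other basement-membrane components tested, 4 rose and 1 fell in Dax1KO LIF/serum (median log2 0.40), namely Fbln2 (1.12), Sparc, a collagen-binding glycoprotein (1.12), Npnt (0.96), Nid2 (0.58) and, falling, Smoc1 (-0.98), with edgeR adjusted p between 0.00204 and 0.0273. In 2i/LIF Tinagl1 (1.90) rose and Fbln2 (-0.97) fell by edgeR, and DESeq2 also called Pxdn higher (adjusted p = 0.0121). The effect of Dax1 loss differed between media for Fbln2 (2.09), Sparc (1.33) and Nid2 (0.78) (edgeR adjusted p = 0.0160, 0.0124 and 0.0437). From 2i/LIF to LIF/serum 8 of the 17 fell and 1, the peroxidase Pxdn, rose in control cells, and 6 fell and 1, Sparc, rose in Dax1KO cells. In control cells Nid1, which links laminin to type IV collagen, was among those that fell (log2 -1.65, edgeR adjusted p = 0.000239).

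Of 24 genes tested for collagen synthesis and secretion, 10 rose and 5 fell in control cells and 13 rose and 1 fell in Dax1KO cells against 2i/LIF. In control cells Fkbp10, a collagen chaperone (2.83), and Serpinh1, the collagen chaperone HSP47 (1.63), rose on the log2 scale (edgeR adjusted p = 4.7e-05 and 0.00159). Both also rose in Dax1KO cells (1.90 and 1.97). In LIF/serum 6 rose and 1 fell (P3h4, -0.75) in Dax1KO cells by edgeR. Among the 6 were Plod1, a lysyl hydroxylase (1.03), and P4ha2, a prolyl hydroxylase subunit (1.00), with edgeR adjusted p of 0.00354 and 0.0160. DESeq2 called 8 higher and 3 lower there, against 11.9% and 7.65% of all genes it tested. It added Serpinh1 (adjusted p = 0.00353) and P4ha1 (0.00474) as higher and Fkbp10 (0.0373) and Mia2 (0.0481) as lower. In 2i/LIF 1 gene, Crtap, was called, and it fell (-0.91). Plod1 passed the test of a difference between media (1.04, edgeR adjusted p = 0.0290), and DESeq2 also passed P4ha1 (adjusted p = 0.0340; 0.201 by edgeR).

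Of 12 genes for extracellular processing and crosslinking, edgeR called 1 higher in Dax1KO LIF/serum, the procollagen C-proteinase Bmp1 (0.81, edgeR adjusted p = 0.0433). It called 2 lower in Dax1KO 2i/LIF, Loxl3 (-3.41) and Pcolce2 (-0.80). In LIF/serum DESeq2 called 4 higher and 0 lower, against 11.9% and 7.65% of all genes it tested. Among the 4 were Loxl2 (adjusted p = 0.0121), Loxl4 (0.0446) and Tgm2 (0.0368). Unadjusted p was below 0.05 for 6 higher and 0 lower, against 17.5% and 13.2% of all genes. In 2i/LIF DESeq2 also called Tgm2 higher (adjusted p = 0.00408). From 2i/LIF to LIF/serum 1 rose and 4 fell in control cells, and 4 rose and 2 fell in Dax1KO cells. Loxl2, a lysyl oxidase that crosslinks type IV collagen, rose in LIF/serum in control (2.74) and Dax1KO cells (3.62), with edgeR adjusted p of 0.00337 and 0.00133. Of 15 receptor genes, 2 rose (Sdc4, 1.11, and Itga7, a laminin-binding integrin chain, 0.96) and 2 fell (Itga1, a collagen- and laminin-binding chain, -2.07, and Ddr1, a collagen receptor kinase, -0.60) in Dax1KO LIF/serum. Against 2i/LIF, 2 rose and 5 fell in control and none rose and 7 fell in Dax1KO cells by edgeR. In Dax1KO cells unadjusted p was below 0.05 for 3 receptors that were higher, against 19.4% of all genes. DESeq2 called 0 higher, against 13% of all genes it tested. Bcam, a receptor for Lama5-containing laminins, was 1.39 higher in Dax1KO 2i/LIF (edgeR adjusted p = 0.00436), and Sdc2 fell there (-1.12).

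Of 9 matrix-breakdown genes tested, 5 rose and none fell in Dax1KO LIF/serum by edgeR (median log2 0.75), including the inhibitor Timp2 (1.41), the gelatinases Mmp9 (1.39) and Mmp2 (0.78), and Timp3 (0.99), with edgeR adjusted p between 0.00532 and 0.0204. Neither an unadjusted p below 0.05 nor DESeq2 gave a gene that was lower. In 2i/LIF, Timp3 rose (1.74). Against 2i/LIF, 2 rose and 5 fell in control and 4 rose and 3 fell in Dax1KO cells, and Mmp14, a membrane-bound collagenase, rose in both (2.87 and 2.59, edgeR adjusted p = 3.81e-05 and 6.33e-05).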

How the data were processed

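Total RNA of 8 mouse ESC samples was sequenced on an Illumina HiSeq platform. The authors deposited gene counts, which are whole numbers and not normalized. The submitters' processing notes name HISAT2 2.0.4, DESeq2 and mm10 without role or order. The counting program, annotation and strand setting are not given in the sources used here. Of 52550 gene IDs, 52403 matched GENCODE M21, which gave coordinates and exon lengths.

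Groups came from the sample titles. The members and gene lists were chosen with earlier results of these data known. In R 4.3.3, edgeR 4.0.16 fitted all 8 libraries with a mean for each of 4 groups, after filterByExpr and TMM scaling (factors 0.9597 to 1.036). The threshold for a call was 0.05 for the adjusted p and 1.2 for the fold change, with the adjusted p alone for the interaction. Named were 12 fixed genes, each member called, and up to 4 called genes per related list and comparison by size of change. A few others were named after their values were seen, and 1 member, counted throughout, is not reported here by name. No test was run on summed levels or chain ratios. The steps were tested on simulated data. Alternatives were DESeq2 1.42.0, RLE size factors, other filters, separate fits, a replicate block, a fold change of 2, other classes and omission of each library. A length offset and values divided by 3 were added after seeing the data. Exons of members overlapped those of other genes by at most 6.27% of their length (Lamc3), and no member matched another gene over more than 10% of its transcript at 95% identity (blastn 2.17.0). Replicates differed by more than sampling noise, which does not tell separate cultures from repeated preparations of 1 sample. Depth was similar, so counting error bears mainly on members below about 100 counts.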

Additional observations from a re-analysis of the deposited data

Results flagged for a closer look

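The effect of Dax1 loss differed between the media for 3 members by the interaction test in edgeR. For Col4a2, which encodes a main type IV chain, the log2 effect was -0.39 in 2i/LIF and the level was 2.83-fold higher in LIF/serum, a log2 difference of 1.89 (adjusted p = 0.0402). For Col5a1, a fibril-regulating chain, it was -0.75 and 0.97, a difference of 1.72 (adjusted p = 0.0139). For Col5a3 the difference was 1.75 (adjusted p = 0.0429). With no filter on low counts the Col4a2 and Col5a3 calls were lost (edgeR adjusted p = 0.110 and 0.0956), as they were with a replicate block. In LIF/serum both Dax1KO libraries lay above both control libraries for all 3 genes. In 2i/LIF the Dax1KO libraries lay below the control libraries for Col5a1 and Col5a3, while those of Col4a2 overlapped. Groups of 2 libraries allow no test for an outlying sample, but the calls rested on single libraries: omission of 1 library at a time lost that of Col4a2 in 6 of 8 cases, that of Col5a1 in 5 and that of Col5a3 in 7.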

How the results depend on the processing

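The alternatives were run on 90 single-gene results, and no called value among them changed sign. Of 1397 alternative values, 1250 kept their side of the threshold, 120 lost the call and 27 gained it.

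In 2i/LIF, 1 basement-membrane gene was called for Dax1 loss in the main analysis, against 4 by DESeq2, 0 with no filter on low counts, 3 with at least 10 counts in every library, 2 with a separate fit, 2 with the length offset, 3 with values divided by 3 and 2 with Col7a1, Col15a1 and Col18a1 counted as basement-membrane genes. For other collagens 2 became 0 with no filter, 1 with a separate fit, 0 at a fold change of 2 and 1 with the reassigned classes. In LIF/serum the 5 basement-membrane genes became 8 by DESeq2, 2 with no filter, 3 with a separate fit, 8 with the length offset and 3 at a fold change of 2. The 5 other collagens became 4 by DESeq2, 4 with no filter and 3 at a fold change of 2. For the difference between media, 1 basement-membrane gene became 4 by DESeq2, 0 with no filter, 2 with at least 10 counts in every library and 3 with the length offset, and 2 other collagens became 3 by DESeq2 and 1 with no filter. From 2i/LIF to LIF/serum, the 15 other collagens called in control cells became 9 and the 8 in Dax1KO cells became 5 with at least 10 counts in every library, where fewer genes were tested. Of all genes it tested, DESeq2 called 6.38% for Dax1 loss in 2i/LIF, 19.6% in LIF/serum and 6.64% for the difference. The main analysis called 3.16%, 14.7% and 2.87%.

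Leaving out each library in turn gave 0 to 2 basement-membrane and 0 to 1 other collagens for Dax1 loss in 2i/LIF, 2 to 5 and 2 to 5 in LIF/serum, and 0 to 2 and 0 to 2 for the difference. It gave 8 to 10 and 9 to 14 for the media in control cells, and 8 to 10 and 5 to 8 in Dax1KO cells. An arm left with 1 library was assumed to vary like the other groups.

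Replicate numbers are shared by the groups but nothing ties them to a culture or day. Differences between replicates correlated at 0.216 between the 2i/LIF groups, 0.286 between the LIF/serum groups and 0.00290 to 0.116 otherwise. With the replicate block, basement-membrane and other collagens called for Dax1 loss in 2i/LIF were 2 and 1, and for the difference 0 and 1. The calls lost under the block were Col5a1 in 2i/LIF (edgeR adjusted p = 0.0632) and, for the difference, Col4a2 (0.0597) and Col5a3 (0.0609). Lamc1 gained a call under the block, as lower in LIF/serum than in 2i/LIF in control cells (edgeR adjusted p = 0.0380).

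With no filter the edgeR adjusted p of Col4a1 for Dax1 loss in LIF/serum was 0.0523, and the length offset brought Lama1 (0.0402) and Lamc1 (0.0201) past the threshold. The cause of these shifts was not tested.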
